A study of Mus musculus with 4 samples.

Results

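Tbx2 and Tbx4 are neighbouring T-box genes on mouse chromosome 11. RING1B and the histone mark H3K27me3 were described over the promoter regions that a pair of tiling arrays carried for them, in forelimb buds of stage E10.5. The members were the probes with array coordinates from 85600000 to 85740000 on chromosome 11, an interval of 140 kb. The pair was selected on its position and on RING1B and H3K27me3 ratios already known from these same arrays, where the Tbx4 region had been among the highest for RING1B, so the levels below are a description with no test. It held 85 probes in 2 tiled regions, among 12349 such regions on the same arrays and 25006 in the series. Whole forelimb buds of wild-type embryos of the strain BDF1 were pooled, fixed in 1% formaldehyde for 20 min and used for chromatin immunoprecipitation with antibodies to either RING1B or H3K27me3. Input DNA of the same tissue and strain shared each array with the precipitate in the other dye, after both had been amplified with T7 RNA polymerase. The 4 arrays of the series are 1 array per antibody for each of 2 designs, and the probes of this interval were on the design with number 2 alone. Each probe was therefore measured on 1 array per antibody, with no replicate, and no p-value is given. Whole buds mix cell types, so the share of cells that carry a mark and the amount per cell cannot be told apart, and genomic DNA gives no expression with which to check the tissue label.

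T-box genes encode transcription factors that bind DNA through a shared T domain. Tbx4 is known as the hindlimb counterpart of the forelimb gene Tbx5, and it takes part in the outgrowth of the hindlimb bud. Tbx2 is a repressor of transcription that is known from the anterior and posterior margins of both limb buds. RING1B is the catalytic subunit of Polycomb repressive complex 1, which ubiquitinates histone H2A, and H3K27me3 is the mark set by Polycomb repressive complex 2. Both are found mainly at the promoters of developmental regulators.

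Values are log2 ratios of Cy5 over Cy3 from which the median of the array was subtracted, so that 0 is the middle of the array. This direction opposes the labels, which give Cy3 to the precipitate and Cy5 to the input. Across the arrays, Cy3 signals of the RING1B and H3K27me3 arrays correlated with r = 0.840 and Cy5 signals with r = 0.722 over 178359 probes. The ratios were skewed towards high Cy5, with a skewness of 1.18 for RING1B and 0.86 for H3K27me3, although fewer probes were well above background in Cy5 (87.8% and 86.5%) than in Cy3 (93.1% and 92.9%). Over the 82 member probes used for both antibodies the order was the other way, with r = 0.821 in Cy3 and 0.882 in Cy5, and at Tbx4 alone with 0.766 and 0.932. From the values over the whole arrays Cy5 is taken as the likely precipitate, but the direction is not settled. High values are called signal below under that reading. If the dyes were as labelled, each ratio would change sign and all the windows of both genes would lie below the middle of the array.

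Both genes carried strong signal for both antibodies, and Tbx4 had a higher RING1B summit than Tbx2. A top window is the highest mean of 3 neighbouring probes in a tiled region. For RING1B it was 5.57 ± 0.55 (SD over 3 probes) at Tbx2 and 7.32 ± 0.47 at Tbx4, or 47.4-fold and 160-fold over the middle of the array. For H3K27me3 it was 4.87 ± 0.55 at Tbx2 and 5.58 ± 0.28 at Tbx4, or 29.2-fold and 47.8-fold. Both regions passed the call threshold for both antibodies, set at 2.7 for RING1B and 2.9 for H3K27me3. At these thresholds 7.85% of the 9997 tiled regions with a RING1B value and 14.1% of the 9985 with an H3K27me3 value were called on the same arrays. As the pair was selected with these values known, nothing is read from that comparison.

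**Figure D1:**
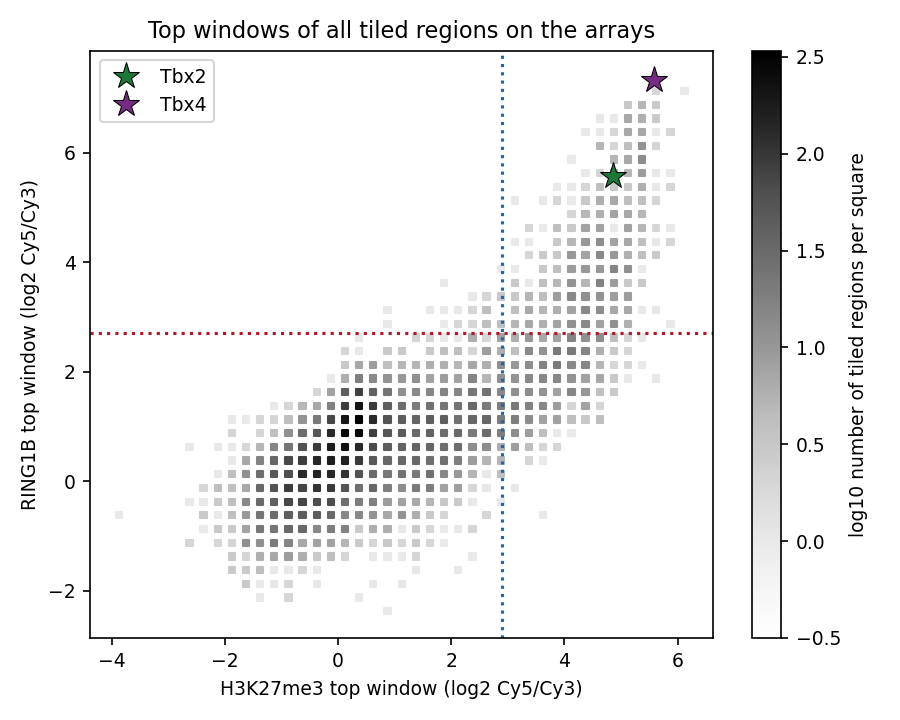
Top window of RING1B (vertical axis) against that of H3K27me3 (horizontal axis) for all tiled regions of the arrays with both values, both in log2 Cy5 over Cy3 minus the array median; grey squares give the log10 number of regions, stars the 2 genes and dotted lines the call thresholds of 2.7 and 2.9. Both stars lie above both thresholds, with Tbx4 at 7.32 on the RING1B axis as the highest point of the plot.

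In rank, Tbx4 stood at the top of the RING1B array. Its top window was number 1 of 9997 regions for RING1B and number 23 of 9985 for H3K27me3. Other settings placed it at number 1 to 3 for RING1B and 8 to 73 for H3K27me3. Tbx2 was number 125 for RING1B and number 299 for H3K27me3. By the mean over all probes of a region, which depends less on a single summit, Tbx4 was number 64 and Tbx2 number 111 for RING1B, and they were number 166 and number 200 for H3K27me3. The genes thus stood closer to each other over the whole region than at the summit. These ranks hold for Cy5 over Cy3. For Cy3 over Cy5, as labelled, Tbx2 and Tbx4 were near the bottom of the arrays, at number 9711 and 9760 of 9997 for RING1B and 9451 and 9107 of 9985 for H3K27me3 by top window. By the region mean Tbx2 was then at number 9887 and Tbx4 at number 9934 for RING1B, and at 9786 and 9820 for H3K27me3.

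The nearest tiled regions on either side of the pair had no such signal. In the RefSeq gene order of GRCm38.p6, 0 annotated genes lie between Tbx2 (gene 21385) and Tbx4 (gene 21387), with the noncoding RNA gene 2610027K06Rik before them and Brip1, a DNA helicase gene of the Fanconi anaemia pathway, as the next protein-coding gene after them. The Tbx2 region ran from 85643569 to 85651794 (8.23 kb, 40 probes) and the Tbx4 region from 85700937 to 85708693 (7.76 kb, 45 probes), in array coordinates. Their genome build is not named in the sources used here. Exon and transcription start positions were therefore not placed on the probes, and distances below are counted from the first probe of each region. Between the regions 49.1 kb had no probe. The nearest tiled region before the interval ended 472 kb from Tbx2 and had top windows of 0.70 ± 0.43 for RING1B and -0.07 ± 0.32 for H3K27me3. The nearest one after it began 304 kb from Tbx4, with 0.30 ± 0.33 for RING1B and -0.12 ± 0.14 for H3K27me3. Neither was called for either antibody, nor were the next 2 regions on each side.

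**Figure D2:**
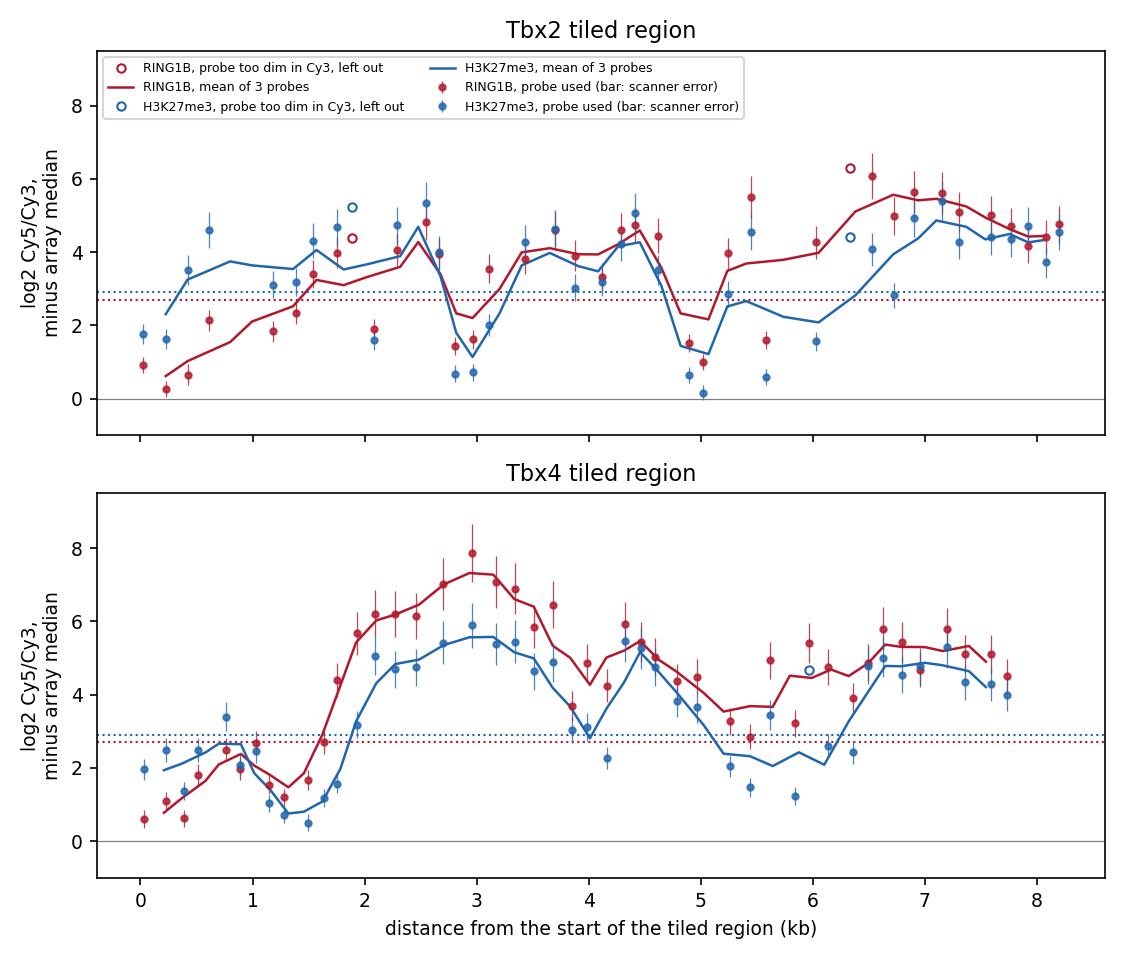
Log2 Cy5 over Cy3 minus the array median (vertical axis) by distance from the start of the tiled region in kb (horizontal axis), for Tbx2 (upper panel) and Tbx4 (lower panel). Points are probes with the scanner software's error, open points are probes too dim in Cy3 to be used, lines are means of 3 neighbouring probes and dotted lines the call thresholds; RING1B has 1 tall summit at Tbx4 near 2.93 kb, while at Tbx2 its highest probe lies at 6.5 kb.

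At Tbx4 the RING1B signal had 1 tall summit, with H3K27me3 highest at the same probe. The probe at 85703865 to 85703924 had 7.87 ± 0.79 for RING1B and 5.90 ± 0.62 for H3K27me3, where ± is the error that the scanner software assigns to the ratio of 1 spot. The 3 probes of the RING1B top window, from 85703610 to 85704136, had 7.02, 7.87 and 7.08. H3K27me3 averaged 5.57 ± 0.29 (SD, 3 probes) in that window, which is close to its own highest value of 5.58 in the next window, from 85703865 to 85704306. The centres of both top windows lay 0.21 kb apart, which is near the spacing of single probes.

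The left flank of this summit was steep. RING1B was 1.67 ± 0.28 at 1.47 kb, 2.70 ± 0.32 at 1.61 kb and 4.39 ± 0.46 at 1.73 kb. It was then 5.67 ± 0.58 at 1.91 kb and 6.22 ± 0.63 at 2.06 kb. On the same probes H3K27me3 was 0.51 ± 0.22, 1.18 ± 0.24, 1.57 ± 0.26, 3.19 ± 0.38 and 5.07 ± 0.54. RING1B had thus just reached its threshold at 1.61 kb, and at 1.73 kb H3K27me3 was still under its own. The largest excess of RING1B over H3K27me3 on any member probe, 2.82, was at 1.73 kb on this flank. The flank probes up to 1.91 kb had 45 bases, and the one at 2.06 kb had 56. Over all regions called for RING1B, probes of 45 bases had lower H3K27me3 than longer ones (1.86 against 2.86). Their RING1B was similar (2.09 against 2.16). The part of probe length in this offset was not tested. To the right both signals fell and recovered. RING1B averaged 4.47 ± 1.01 (SD, n = 11 probes) from 4 to 6 kb and 4.99 ± 0.59 (n = 10) in the last stretch, and H3K27me3 averaged 3.34 ± 1.54 (n = 10) and 4.21 ± 0.97 (n = 10).

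Tbx2 had a lower RING1B profile that grew along the region. By stretches of 2 kb from the first probe, RING1B averaged 1.94 ± 1.31 (SD, n = 8 probes), 3.37 ± 1.25 (n = 10), 3.41 ± 1.64 (n = 9) and 4.98 ± 0.61 (n = 11). The last stretch exceeded the first by more than the spread of probes in either. H3K27me3 was flatter, with 3.35 ± 1.19, 3.10 ± 1.74, 2.75 ± 1.85 and 4.07 ± 1.06 in the same stretches. The highest RING1B probe, 6.08 ± 0.62, was at 6.5 kb, and its top window from 85650069 to 85650503 held probes of 6.08, 4.98 and 5.64. The highest H3K27me3 probe, 5.38 ± 0.57, was at 7.12 kb. The next highest H3K27me3 probe, 5.35 ± 0.57, lay far from it at 2.52 kb, so the H3K27me3 profile of Tbx2 had no single summit.

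At the left end of both regions H3K27me3 was higher than RING1B. In the first 2 kb of Tbx2, H3K27me3 exceeded RING1B on all 8 used probes, and RING1B minus H3K27me3 averaged -1.41 ± 0.81. At 0.40 kb H3K27me3 was 3.52 ± 0.41 and RING1B 0.66 ± 0.29. At 0.58 kb they were 4.61 ± 0.50 and 2.15 ± 0.29. In the first stretch of Tbx4 the order split by position. H3K27me3 was the higher on the first 6 probes, up to 0.86 kb, and RING1B on all 7 after them, with a mean difference of 0.31 ± 1.38 over the 13 probes. Beyond the first 2 kb of each region RING1B was the higher on 30 of 31 probes at Tbx4 and on 23 of 30 at Tbx2. The antibodies' arrays have different spreads (SD 1.41 for RING1B and 1.68 for H3K27me3), so these differences compare array ratios and not occupancy.

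Signal reached the right edge of both tiled regions. The last 3 probes averaged 4.44 ± 0.30 for RING1B and 4.33 ± 0.53 for H3K27me3 at Tbx2, and 4.90 ± 0.35 and 4.21 ± 0.19 at Tbx4, all above the thresholds. The first 3 probes averaged 0.62 ± 0.33 for RING1B and 2.31 ± 1.05 for H3K27me3 at Tbx2, and 0.78 ± 0.27 and 1.94 ± 0.56 at Tbx4, all below them. Signal thus fell under the thresholds at the left end of both regions, and its right ends were not measured.

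The share of each region over the threshold depended on the processing, such as the dim-probe filter, which changes the threshold. With it, for RING1B, 27 of 36 windows at Tbx2 (75%) and 34 of 43 at Tbx4 (79.1%) were over the threshold of 2.7. Without the filter the threshold rose to 4.55, and 10 of 37 windows at Tbx2 (27%) and 27 of 43 at Tbx4 (62.8%) were over it. The 34 windows at Tbx4 formed 1 unbroken run of 6.28 kb, while the longest of Tbx2 held 13 windows over 3.23 kb. For H3K27me3, 25 of 36 windows at Tbx2 (69.4%) and 25 of 42 at Tbx4 (59.5%) were over the threshold, with longest runs of 2.63 kb and 2.28 kb. Without the filter, at 3.45, these were 26 of 38 and 24 of 43. The order of the genes was not stable. For RING1B, Tbx2 had the larger share with normexp (94.4% against 90.7%) and with windows of 5 probes (91.2% against 82.9%). The same held with longer probes alone (87.5% against 83.3%). For H3K27me3, Tbx4 had the larger share with loess (54.8% against 47.2%). The other settings kept the order. Across all 775 regions called for RING1B with at least 10 windows, the median share was 28.6%, and 85.7% of those regions had a smaller share than Tbx2 and 87.2% a smaller one than Tbx4. For H3K27me3 the median was 34.8% over 1371 regions, with 84.7% of them below Tbx2 and 77.2% below Tbx4.

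**Figure D3:**
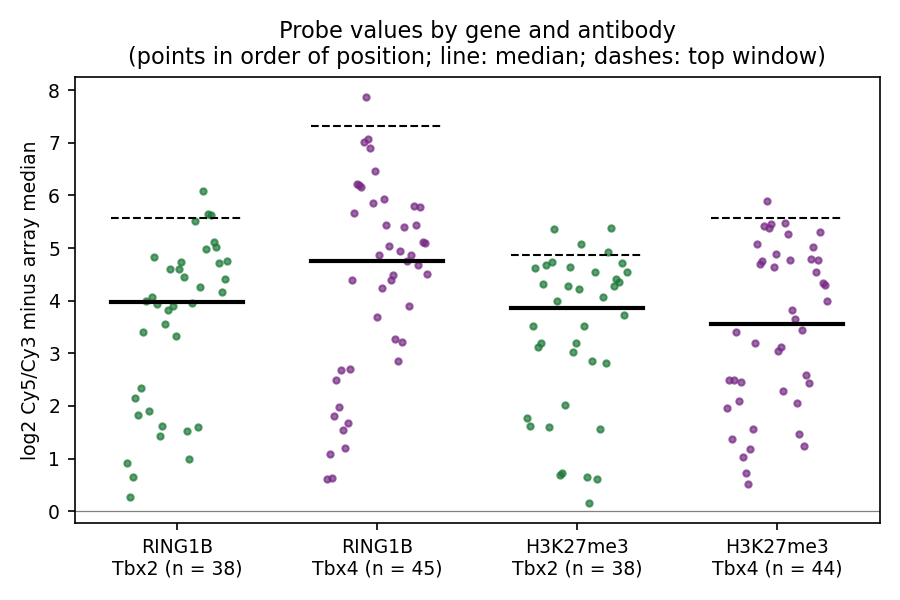
Log2 Cy5 over Cy3 minus the array median (vertical axis) of each used probe, by antibody and gene, with points spread sideways in order of position, the median as a solid line and the top window as dashes. RING1B probes of Tbx4 reach 7.87 against 6.08 at Tbx2, while the H3K27me3 medians are 3.55 at Tbx4 and 3.86 at Tbx2.

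Set side by side, the genes differed most at the RING1B summit. The RING1B top window of Tbx4 exceeded that of Tbx2 by 1.76 ± 0.73 (3.38-fold; error from the SDs of both windows), and 5 of 45 Tbx4 probes were above every Tbx2 probe, those too dim to be used included. The H3K27me3 top windows differed by 0.71 ± 0.62 (1.64-fold), little more than the spread of their probes. Over all probes RING1B averaged 3.54 ± 1.60 (SD, n = 38 probes) at Tbx2 and 4.35 ± 1.88 (n = 45) at Tbx4, a difference of 0.81 that is smaller than the spread along either region. H3K27me3 averaged 3.35 ± 1.52 (n = 38) and 3.46 ± 1.56 (n = 44), a difference of 0.11. Its medians were in the other order, at 3.86 for Tbx2 and 3.55 for Tbx4. The gap between genes was thus larger for RING1B than for H3K27me3 at the summit and over the region, and with 1 array per antibody this was not tested. No member spot was saturated in either dye.

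The antibodies followed each other along both regions. Across probes, which are not independent and share the probe's own hybridisation, RING1B and H3K27me3 correlated with r = 0.861 (rho = 0.881) over 44 probes of Tbx4 and with r = 0.729 (rho = 0.685) over 38 probes of Tbx2, against r = 0.673 (rho = 0.561) over all 178359 probes of the arrays. RING1B minus H3K27me3 had a median of 0.86 at Tbx4 and 0.34 at Tbx2. Of the 82 probes used for both antibodies, 48 were over both thresholds, 12 over that of RING1B alone, 5 over that of H3K27me3 alone and 17 over neither. Over all used probes of each array, taken alone, 5.07% were over the RING1B threshold and 9.00% over that of H3K27me3. The shares of the joint classes over the arrays are not given here, so their counts are a description only. Probes of 45 bases made up 8 of the 12 with RING1B alone, against 6 of the 48 and 25 of all 82. The part of probe length in these classes was not tested. All 5 with H3K27me3 alone lay within the first 1.36 kb of their region, 4 of them at Tbx2.

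Between top windows, RING1B exceeded H3K27me3 by 1.75 at Tbx4 and by 0.70 at Tbx2. Among the 755 regions called for both antibodies the median of this difference was -0.41, and 99.1% of them had a smaller difference than Tbx4 and 85.0% a smaller one than Tbx2. That median depended on the processing: it was 0.42 over 290 regions without the dim-probe filter, 0.46 with probes above background in 1 channel, 0.02 with loess and -0.17 with normexp. The excess at Tbx2 was 1.67 with normexp. High RING1B values widen this difference by construction, so it adds nothing independent to the rank of Tbx4.

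**Figure D4:**
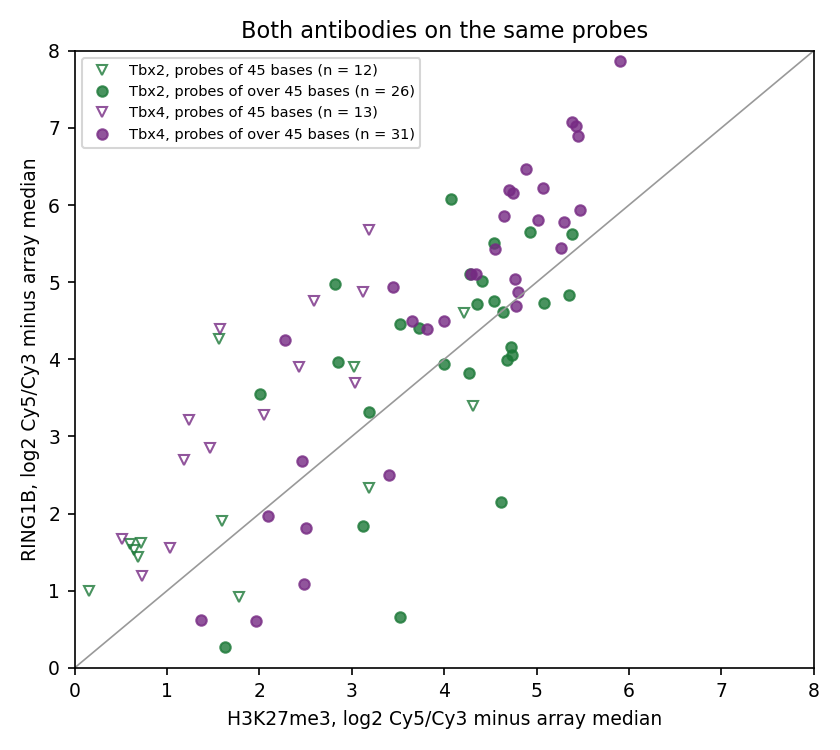
RING1B (vertical axis) against H3K27me3 (horizontal axis) on the 82 probes used for both, in log2 Cy5 over Cy3 minus the array median; colours give the gene, triangles probes of 45 bases and circles longer probes, and the grey line is equality. Probes of 45 bases lie lower on both axes, with means of 2.89 and 1.86 against 4.44 and 4.09 for longer probes.

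Both profiles had narrow valleys, and values were lower on the shortest probes. Probes of the regions were 45 to 60 bases long. The 25 probes of 45 bases averaged 2.89 ± 1.41 (SD) for RING1B and 1.86 ± 1.19 for H3K27me3, and the 57 longer ones 4.44 ± 1.75 and 4.09 ± 1.12. At Tbx2, RING1B dropped from 3.94 ± 0.43 at 2.64 kb to 1.43 ± 0.24 at 2.79 kb, and H3K27me3 from 3.99 ± 0.45 to 0.69 ± 0.22 on the same probes. A second valley at 5 kb held 1.00 ± 0.23 for RING1B and 0.16 ± 0.21 for H3K27me3, the lowest H3K27me3 value of the 82 probes. Of the probes under both thresholds, 7 of 8 at Tbx2 and 3 of 9 at Tbx4 had 45 bases. Among all used probes these were 12 of 38 at Tbx2 and 13 of 44 at Tbx4. Probes under both thresholds were thus mostly short at Tbx2 only. Of the probes over the RING1B threshold alone, 7 of 8 at Tbx4 and 1 of 4 at Tbx2 had 45 bases. For H3K27me3, probes of 45 bases averaged 1.86 against 4.14 for longer ones at Tbx4, and 1.87 against 4.04 at Tbx2. Beyond 1.6 kb, 6 probes of Tbx2 were under both thresholds, all 6 of 45 bases, and 0 of Tbx4. Over all regions called for RING1B, probes of 45 bases averaged 2.09 for RING1B against 2.16 for longer ones, and 1.86 for H3K27me3 against 2.86. Over all probes of the arrays the order was the other way round, with 0.78 against 0.02 for RING1B and 0.57 against 0.17 for H3K27me3. The part of probe length in the valleys was not tested. With longer probes alone, the means of the genes differed by 0.67 for RING1B and 0.10 for H3K27me3.

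The regions nearest to each gene in the pair of top windows were taken by a fixed rule, as the 5 with the smallest distance on both axes among 9801 regions. They carry no gene names in the files. For Tbx4 the nearest was 99448976 to 99456871 on chromosome 13, with 7.20 ± 0.14 for RING1B and 5.62 ± 0.15 for H3K27me3. The other four lay on chromosomes 13, 17 and 19, at distances of 0.29 to 0.42. Around Tbx2 the regions were denser. The nearest, 93255930 to 93263864 on chromosome 10, had 5.57 ± 0.28 and 4.87 ± 0.16, and the 5 lay at distances of 0.0082 to 0.086. The distance between the genes themselves was 1.89, and Tbx4 was number 435 among the regions in order of nearness to Tbx2.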

How the data were processed

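Scans were read by the authors in Agilent Feature Extraction 10.1.1.1, per the file headers. The deposited processed signals are linear intensity values after background subtraction, detrending and a linear dye normalization. The deposited ratios of single spots, with an error each, are log10 values. The authors' value table is on the log2 scale, and 99.9% (RING1B) and 99.8% (H3K27me3) of its values lay within 0.001 of the scanner files' ratios.

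Ratios were log2 processed Cy5 over Cy3, minus the array's median over used probes (198766 for RING1B, 196983 for H3K27me3). Used were non-control spots without outlier flags and well above background in both dyes. Starts at most 1000 bp apart formed a tiled region. The call threshold was the lowest, in steps of 0.05, for which tiled regions with a window as far on the negative side numbered 5 or fewer per 100 called. Repeated control probes had a median SD of 0.15 and 0.13, and precision is limited by 1 array per antibody. The members, lists and rules were chosen with earlier results of these data known. The named regions were the members, the nearest tiled regions on each side, and the 5 most like each gene. The lists of T-box and limb genes were not analysed here, because the files pair no probe with a gene. For the same reason no sequence is printed. Window finding was tested on simulated arrays with independent noise and planted windows of 3 probes. These lacked the skew and the broad signal of the real arrays, so the test covers the code and not the calls here. Python 3.11.15, pandas 2.3.3, R 4.3.3 and limma 3.58.1 were used. Alternatives are given in the closing section.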

Additional observations from a re-analysis of the deposited data

How the results depend on the processing

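Of 132 values recomputed under 15 alternatives, 114 moved by less than the spread of their probes or, for the number of called regions, stayed the same, 11 moved further and 7 turned sign. Part of this count was fixed in advance. For differences of region means (0.81 and 0.11) the spread was 2.47 for RING1B and 2.18 for H3K27me3, which they could hardly exceed. Centring on the mean shifts both genes' top windows alike, so their differences could not change. Both relaxed dim-probe filters and kept outliers left the same 3 probes in each top window, so these differences did not change either. The Tbx2 probe at 6.30 kb, with 6.31 for RING1B but too dim to be used, entered the RING1B top window in none of these settings. The count is therefore no measure of stability. Both regions stayed called for both antibodies wherever a threshold could be set, while those settings called 2.78% to 37.5% of all regions for RING1B and 11.6% to 30.6% for H3K27me3, the most at 2-fold. With normexp (offset 50, on median signals, since mean signals were not in the files used here) the top windows of Tbx2 were 4.92 for RING1B and 3.25 for H3K27me3, that of Tbx4 for H3K27me3 was 4.62, and the genes differed by 1.36 for H3K27me3. With loess the top windows were 4.12 (Tbx2) and 5.65 (Tbx4) for RING1B and 3.67 and 4.47 for H3K27me3. Divided by each array's median absolute deviation, they were 7.45 and 9.80 for RING1B and 6.19 for H3K27me3 at Tbx4, in other units. The cause was not tested beyond these constructions. Taken as labelled, Cy3 over Cy5, the top windows were -0.62 (Tbx2) and -0.78 (Tbx4) for RING1B and -1.14 and -0.76 for H3K27me3. The top windows then differed by -0.16 for RING1B and, without a change of sign, 0.38 for H3K27me3, and the region means by -0.81 and -0.11. No call threshold existed in that direction. In the other direction, Tbx4 exceeded Tbx2 under every alternative, on the log2 scale by 1.44 to 1.99 in RING1B top windows, 0.52 to 1.36 in H3K27me3 top windows, 0.65 to 0.81 in RING1B means and 0.06 to 0.23 in H3K27me3 means. Tbx4 ranked number 1 to 3 for RING1B and 8 to 73 for H3K27me3, and Tbx2 108 to 162 and 252 to 351. The share of regions called for both with a smaller RING1B excess than Tbx2 ranged from 62.9% to 94.7%. Keeping flagged outliers and using longer probes alone were chosen after seeing the data. No paired analysis was possible because arrays that share a number hold different antibodies, and 0 probes are shared between numbers.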
